A study of Mus musculus with 22 samples.

Results

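Known target genes of the glucocorticoid receptor were followed through the nucleus accumbens of mice, the part of the ventral striatum that serves reward and responses to opioids. The set was a list of 33 genes chosen by function, without Fkbp5 and Per1, with earlier results of these data known. Its counts, set beside the shares of all genes below, are therefore a description and not an independent test. The same holds for the other gene lists below. The set was matched by symbol to the 24061 genes of the count table. All 33 were listed there. Of these, 32 were among the 14564 genes that passed the low-count filter and were tested. Lcn2, which encodes the siderophore-binding protein lipocalin 2, had 40 counts over all 22 libraries and was not tested.

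Polyadenylated RNA of bulk tissue was sequenced from conventionally raised male C57BL/6J mice aged 7 to 9 weeks. The mice drank water or received nonabsorbable antibiotics to deplete their gut microbiome, and they were given saline or morphine. Morphine was given at 20 mg/kg per day for 7 days. There were 6 water-saline, 5 water-morphine, 6 antibiotic-saline and 5 antibiotic-morphine libraries. The labels name no antibiotic and do not say that each library is a separate animal, so p-values measure the spread between these libraries, which may be partly technical.

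Corticosterone, the main glucocorticoid of the mouse, enters cells and binds the glucocorticoid receptor, which is held ready by heat shock protein 90 and its co-chaperones. The bound receptor moves to the nucleus and attaches to glucocorticoid response elements, a palindrome of spaced half-sites, and transcription of nearby genes rises or falls. Its induced targets include brakes on inflammation and growth signalling, transcription factors, and enzymes that shift cells from glucose to fat as fuel. In the striatum many of these genes are also expressed by astrocytes and other glia.

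Gene counts ran from 9357299 to 15330947 per library, and values below are CPM, counts scaled to the size of the library's gene counts. Counts outside annotated genes made up 8.97% to 15.4% of a library, with the highest shares in antibiotic-saline library 6 (15.4%) and antibiotic-morphine library 4 (12.5%). The same libraries had the most Malat1, a nuclear noncoding RNA, at 2463 and 1007 CPM. Long and short transcripts also differed in balance. The slope of each library's deviation in log2 CPM per doubling of transcript length ran from -0.0781 to -0.0111 in water-saline, from 0.0280 to 0.0468 in water-morphine, from -0.0532 to 0.0479 in antibiotic-saline and from 0.0255 to 0.0550 in antibiotic-morphine libraries. The median transcript length was 2834 nucleotides for the 32 tested members and 3260 for all tested genes with a length. Markers of striatal projection neurons were abundant in every library, with a sum over 12 genes of 3374 to 7860 CPM.

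Promoter windows from RefSeq (build GRCm38.p6), which run from 250 bases before to 50 bases after a gene's start, were held for 26 of the 33 members, with 37 windows in all. The core of a glucocorticoid response element, ACANNNTGT, was found in 5 of these 37 windows (13.5%), in Lcn2, Map3k6, Mt1 and Sgk1, and in 6.85% of all 32851 windows. The full palindrome, AGAACA and TGTTCT with any 3 bases between, was found in 3 of the 32851 windows (0.00913%), and 1 of these lay before a start of Sgk1. Both motifs, which overlap where the full one occurs, read the same on either strand. The cyclic AMP response element TGACGTCA, also a palindrome, was found in 2 of the 37 windows, in Arl4d and Errfi1, and in 1.79% of all windows. A match describes letters and is not a measured binding site. The 250 bases before the start are shown 5′ to 3′ for the 3 members with a match to the glucocorticoid response element that were also called in a comparison below, with that motif in capitals.
Sgk1, 1 of 6 annotated starts, chr10:21993640-21993889, plus strand, full match beginning 189 bases before the start: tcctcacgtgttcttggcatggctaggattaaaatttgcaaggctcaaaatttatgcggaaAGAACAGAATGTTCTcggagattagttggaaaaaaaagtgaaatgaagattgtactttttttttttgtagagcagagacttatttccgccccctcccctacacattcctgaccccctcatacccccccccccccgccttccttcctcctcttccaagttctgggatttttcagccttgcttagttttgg
Map3k6, chr4:133240568-133240817, plus strand, core match beginning 179 bases before the start: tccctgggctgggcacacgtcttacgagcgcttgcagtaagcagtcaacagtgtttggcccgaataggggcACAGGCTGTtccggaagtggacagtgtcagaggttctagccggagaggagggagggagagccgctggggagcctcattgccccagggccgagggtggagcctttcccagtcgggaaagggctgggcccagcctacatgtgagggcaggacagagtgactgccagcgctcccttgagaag
Mt1, chr8:94178839-94179088, plus strand, core match beginning 92 bases before the start: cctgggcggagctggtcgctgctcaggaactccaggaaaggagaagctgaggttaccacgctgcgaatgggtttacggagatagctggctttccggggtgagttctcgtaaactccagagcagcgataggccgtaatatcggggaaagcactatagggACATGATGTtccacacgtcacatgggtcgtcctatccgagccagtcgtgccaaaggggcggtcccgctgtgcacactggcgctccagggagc

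Per kilobase of transcript, the most abundant members were the metallothionein genes Mt1 (150 CPM per kb over the 22 libraries) and Mt2 (141) and Rhob (132), and the lowest tested members were Cebpd (0.807), Angptl4 (1.05) and Map3k6 (1.12). The antibiotic-morphine group had the highest mean CPM for 27 of the 32 tested members. Mt1 and Mt2 had their highest mean in the water-saline group, Ddit4 and Nfkbia in the antibiotic-saline group and Angptl4 in the water-morphine group. The lowest mean fell in the water-morphine group for 19 members and in the water-saline group for 12. Averaged over the members, log2 CPM relative to each gene's mean was -0.338 to -0.178 in water-saline, -0.443 to -0.197 in water-morphine, -0.143 to 0.281 in antibiotic-saline and 0.268 to 0.589 in antibiotic-morphine libraries. The range of the antibiotic libraries did not overlap that of the water libraries, and antibiotic-saline libraries 4, 5 and 6 stood above libraries 1, 2 and 3.

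**Figure D1:**
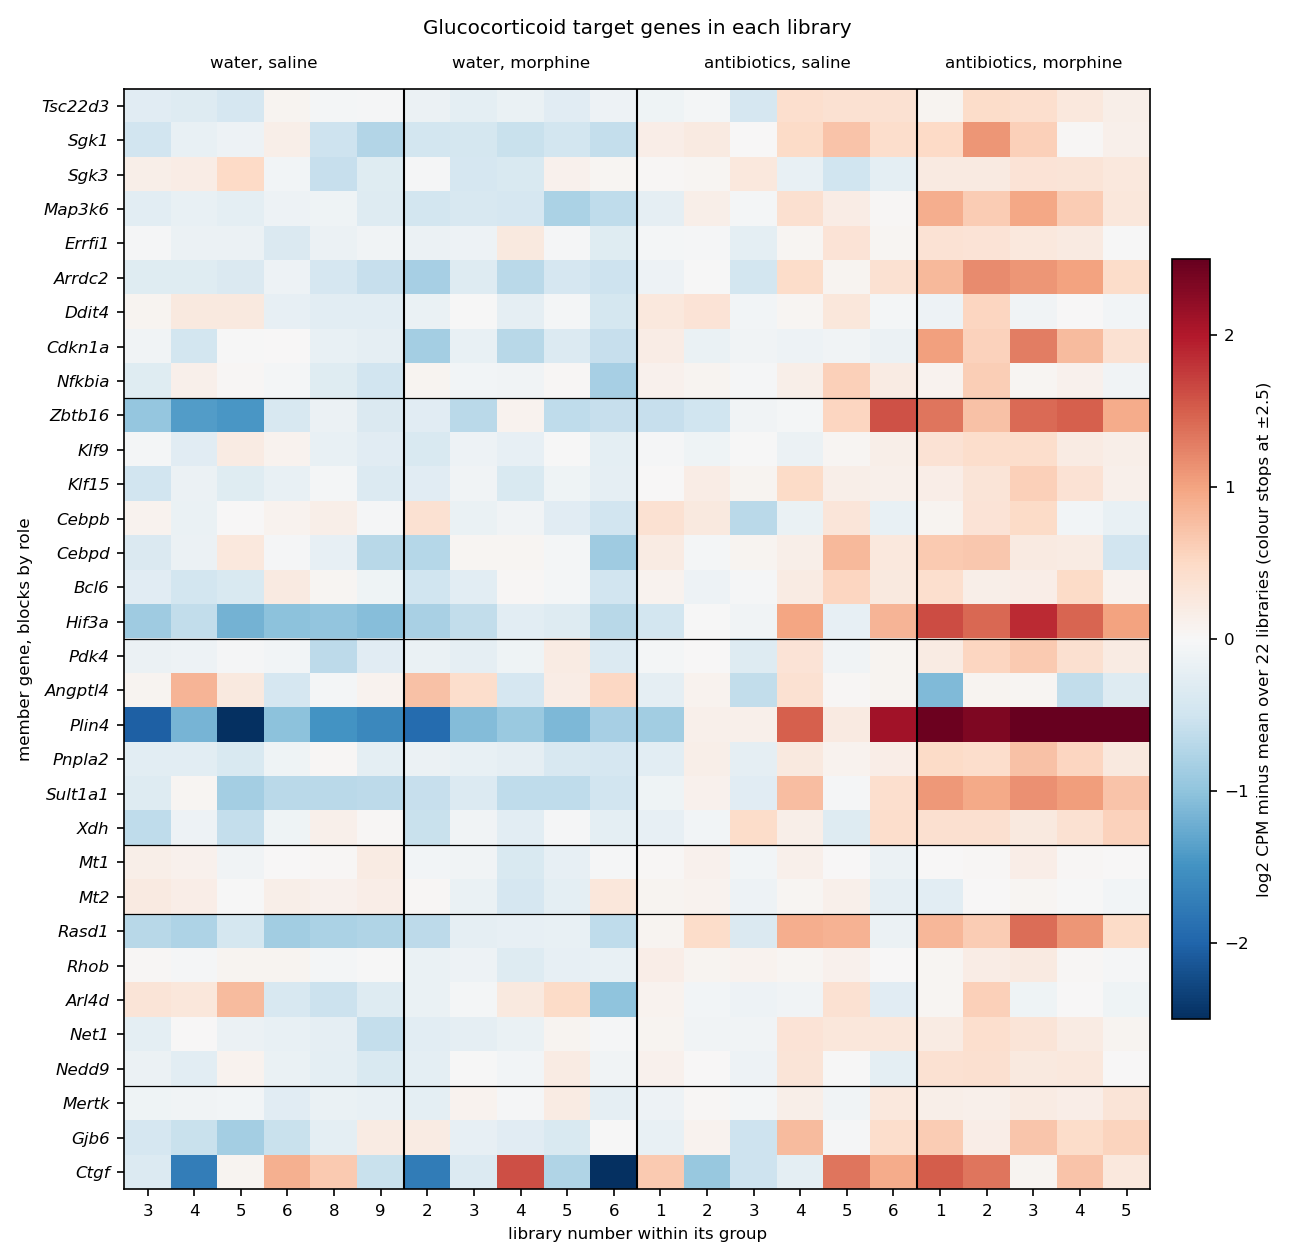
Each row is 1 of the 32 tested members and each column 1 of the 22 libraries, and colour gives log2 CPM minus the gene's mean over the libraries. Red fills most rows in the 5 antibiotic-morphine columns, with Plin4, Hif3a, Zbtb16 and Sult1a1 the deepest, while Mt1, Mt2, Ddit4 and Angptl4 show no such block.

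The members were compared in pairs of groups with edgeR's quasi-likelihood test on all 14564 genes, and a gene was called at a Benjamini-Hochberg adjusted p under 0.05. In water mice, morphine went with lower levels of 2 members, Rhob and Mt1, and higher levels of 0, while 2.67% of all tested genes were called lower and 3.91% higher. In antibiotic mice, morphine went with higher levels of 9 members and lower levels of 0, against 6.43% of all genes called higher and 6.62% lower. Antibiotics with saline went with higher levels of 5 members and lower levels of 0, against 0.542% of all genes called higher and 0.865% lower. Antibiotics with morphine, set against water with morphine, went with higher levels of 21 members and lower levels of 0, against 8.42% of all genes called higher and 9.58% lower.

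The median log2 change of the 32 members was -0.04 for morphine in water mice, 0.23 for morphine in antibiotic mice, 0.30 for antibiotics with saline and 0.52 for antibiotics with morphine, where the median of all tested genes was 0.00 in each. Positive changes were seen for 13, 28, 27 and 31 members in that order. These comparisons share groups of libraries, so their values stand side by side and are not separate tests of one another. At an unadjusted p under 0.05, 5 members were lower and 0 higher with morphine in water mice, where 22.7% of all genes passed that level in either direction. Likewise 17 were higher and 0 lower with antibiotics in saline mice, where 8.62% of all genes were higher at that level. Groups did not overlap for 2 members with morphine in water mice (5.84% of all genes in either direction) and for 4, Cdkn1a, Klf9, Hif3a and Plin4, with morphine in antibiotic mice (3.14% of all genes on the higher side). They did not overlap for 4 members, Klf15, Hif3a, Plin4 and Rasd1, with antibiotics in saline mice (0.632%), nor for 18 with antibiotics in morphine mice (6.26%).

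**Figure D2:**
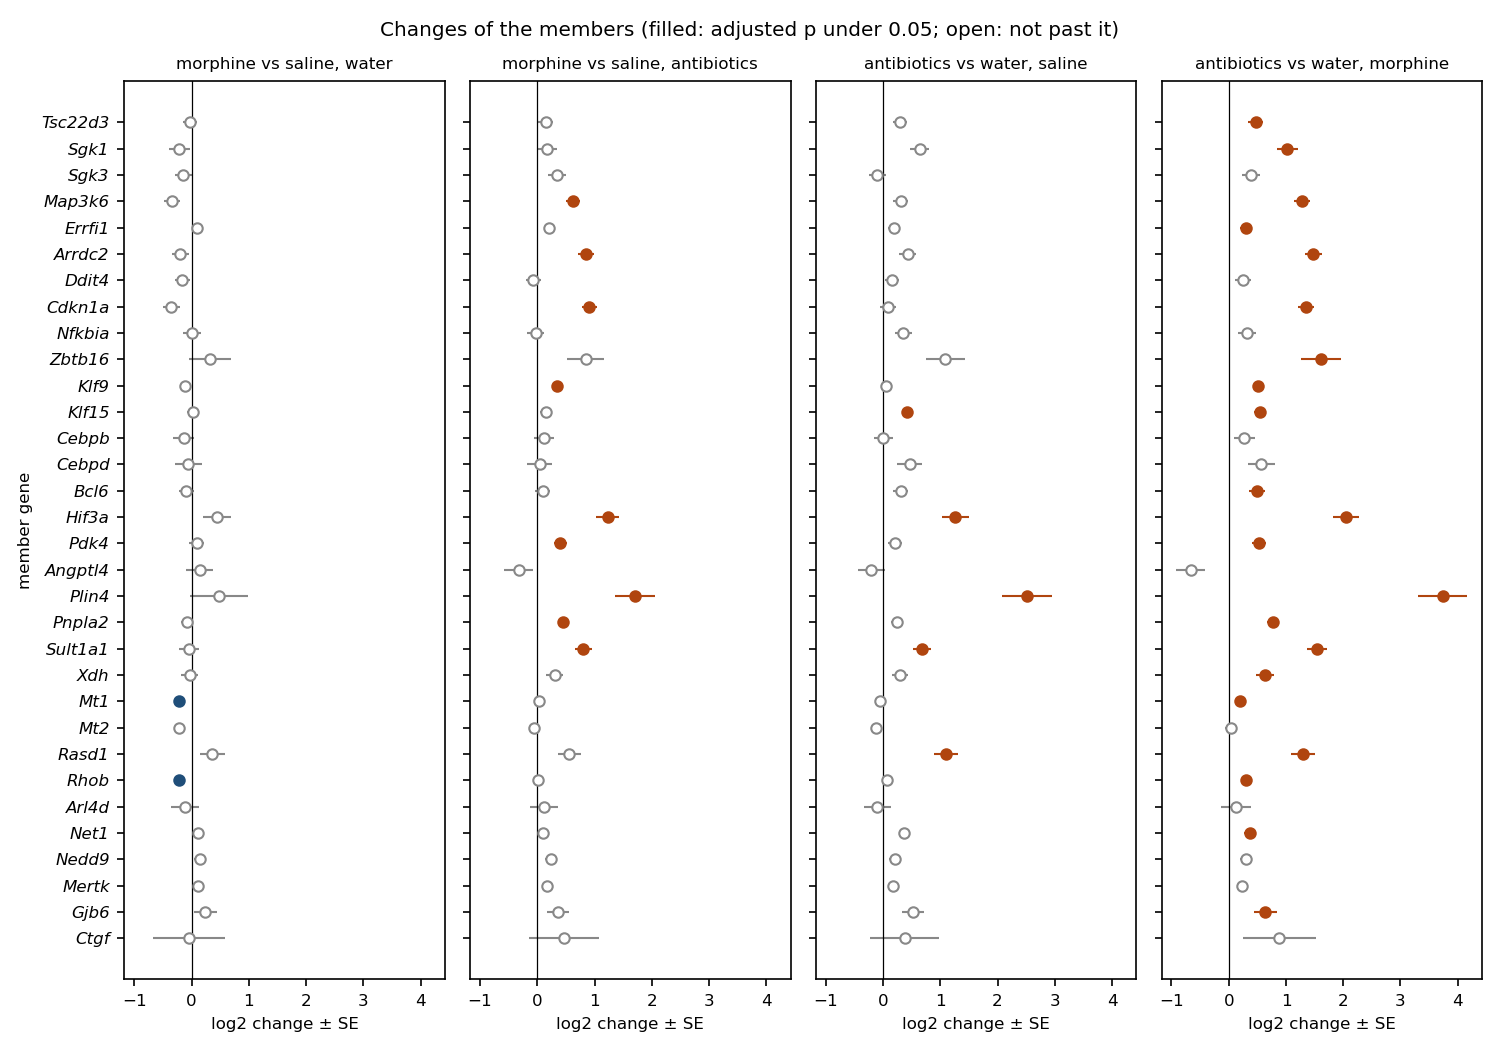
Log2 change with its standard error for the 32 tested members in the 4 comparisons of group pairs. Filled points passed an adjusted p of 0.05; they number 2 in the first panel, both below 0, and 9, 5 and 21 in the others, all above 0.

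Among the 9 regulators of signalling and of the cell cycle, 6 rose with antibiotics in morphine mice, 3 rose with morphine in antibiotic mice, and 0 passed in the other pairs. The shares of all genes called higher were 8.42% in the first of these pairs and 6.43% in the second. Arrdc2, which encodes an arrestin-domain protein, had a median of 12.5 CPM (10.5 to 14.4) in water-saline libraries and of 16.05 (11.4 to 21.7) in antibiotic-saline libraries. Its 5 water-morphine libraries held 8.84, 12.6, 9.84, 11.8 and 11.01 CPM, and its 5 antibiotic-morphine libraries 27.7, 35.97, 34.1, 31.8 and 21.6. The morphine groups lay apart, and the lowest antibiotic-morphine library, library 5, fell just under the highest antibiotic-saline one, library 4. Arrdc2 rose 2.79-fold with antibiotics in morphine mice (log2 change 1.48 ± 0.150 SE, adjusted p = 1.89e-06) and by a log2 change of 0.85 ± 0.139 with morphine in antibiotic mice (adjusted p = 0.000473).

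Map3k6, a kinase at the head of the p38 and JNK stress cascades, was rarer. Its CPM had a median of 3.93 (3.61 to 4.23) in water-saline and of 4.89 (3.86 to 6.12) in antibiotic-saline libraries. Water-morphine libraries held 3.26, 3.44, 3.39, 2.56 and 2.90 CPM, and antibiotic-morphine libraries 8.77, 7.21, 9.11, 7.15 and 5.56. All 5 water-morphine libraries lay below all 6 water-saline ones, although that change did not pass (-0.34 ± 0.141, adjusted p = 0.146). Map3k6 rose with antibiotics in morphine mice by 1.27 ± 0.138 (adjusted p = 2.26e-06) and with morphine in antibiotic mice by 0.62 ± 0.127 (adjusted p = 0.00269).

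Cdkn1a encodes p21, an inhibitor of cyclin-dependent kinases that glucocorticoids induce in many cells. It had a median of 23.8 CPM (18.8 to 26.4) in water-saline and of 24.2 (23.3 to 29.6) in antibiotic-saline libraries. The water-morphine libraries held 14.4, 22.8, 16.2, 20.7 and 17.6 CPM and the antibiotic-morphine libraries 53.2, 38.8, 63.3, 45.1 and 33.9. Every antibiotic-morphine library stood above every other library. Cdkn1a rose by 0.91 ± 0.134 with morphine in antibiotic mice (adjusted p = 0.000308) and by 1.35 ± 0.143 with antibiotics in morphine mice (adjusted p = 2.66e-06), and its change with antibiotics in saline mice was 0.09 ± 0.133 (adjusted p = 0.788).

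Of the other regulators, Sgk1, a kinase that raises sodium transport and is among the quickest receptor targets, rose with antibiotics in morphine mice by 1.02 ± 0.184 (adjusted p = 0.000757), from 72.3 ± 3.45 to 147 ± 46.2 CPM (SD, n = 5 each). Its change with antibiotics in saline mice was 0.64 ± 0.168 (adjusted p = 0.0592). Tsc22d3, which encodes the anti-inflammatory leucine zipper protein GILZ, rose by 0.47 ± 0.132 with antibiotics in morphine mice, and Errfi1, an inhibitor of ErbB receptors, by 0.30 ± 0.099. The Errfi1 call (adjusted p = 0.0399) was lost in 8 of 10 fits without 1 library of that pair, with an adjusted p of up to 0.114. Sgk3, a kinase related to Sgk1, Ddit4, an inhibitor of mTORC1, and Nfkbia, the inhibitor of NF-kappa B, passed in no comparison. Their changes with antibiotics in morphine mice were 0.39 ± 0.157, 0.25 ± 0.133 and 0.32 ± 0.158.

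**Figure D3:**
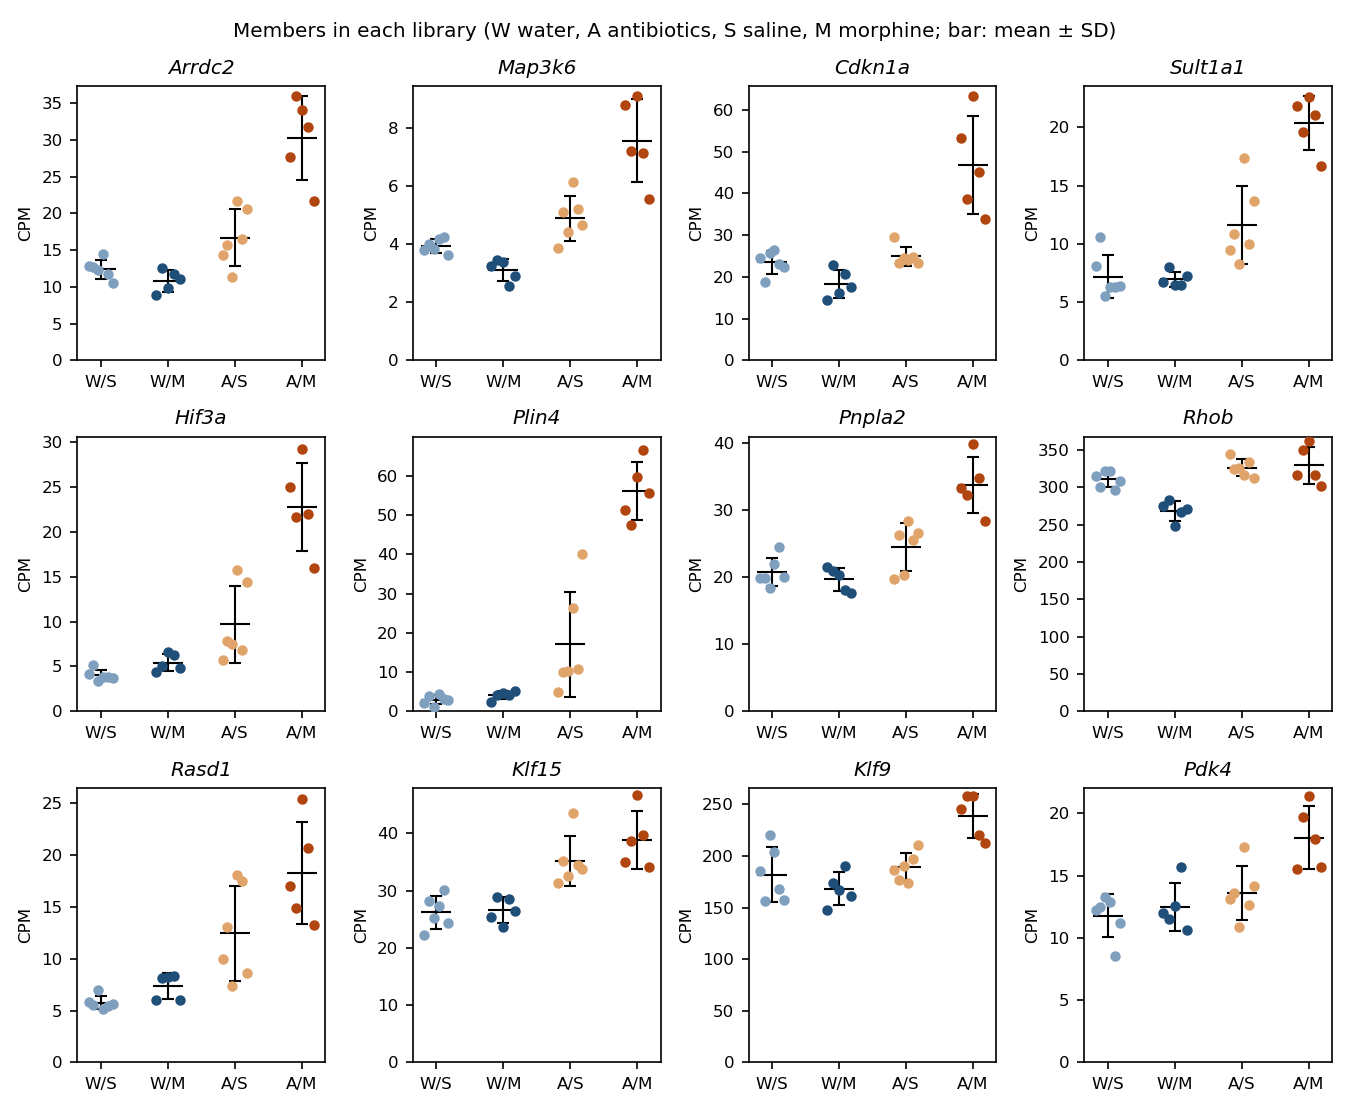
CPM in each library for the 12 members described by values of single libraries. Black bars give the mean and SD of 6, 5, 6 and 5 libraries in water-saline, water-morphine, antibiotic-saline and antibiotic-morphine groups. Plin4, Hif3a and Cdkn1a in the antibiotic-morphine group lie above all other groups, and Rhob is lowest in the water-morphine group.

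Of the 7 transcription factors, 5 rose with antibiotics in morphine mice, and 2 each rose with morphine in antibiotic mice (Klf9 and Hif3a) and with antibiotics in saline mice (Klf15 and Hif3a). In these pairs 8.42%, 6.43% and 0.542% of all genes were called higher. Hif3a, a hypoxia-inducible factor subunit that can oppose the other subunits, had a median of 3.83 CPM (3.40 to 5.11) in water-saline and of 7.64 (5.69 to 15.8) in antibiotic-saline libraries. Its water-morphine libraries held 4.42, 5.09, 6.58, 6.26 and 4.80 CPM, and its antibiotic-morphine libraries 25.0, 21.6, 29.2, 21.9 and 15.9. The water-saline and antibiotic-saline groups did not overlap, and antibiotic-saline libraries 4 (15.8) and 6 (14.4) stood above the rest of their group. Hif3a rose by 1.26 ± 0.230 with antibiotics in saline mice (adjusted p = 0.00986), by 2.05 ± 0.229 with antibiotics in morphine mice (adjusted p = 4.65e-06) and by 1.23 ± 0.208 with morphine in antibiotic mice (adjusted p = 0.000872).

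Klf9, a Krüppel-like factor that the receptor induces in neurons, was far more abundant. It had a median of 177 CPM (157 to 221) in water-saline and of 189 (174 to 211) in antibiotic-saline libraries. Its water-morphine libraries held 147, 174, 167, 191 and 161 CPM, and its antibiotic-morphine libraries 245, 258, 258, 220 and 213. The antibiotic-morphine libraries all lay above the antibiotic-saline and water-morphine ones. Klf9 rose by 0.34 ± 0.084 with morphine in antibiotic mice (adjusted p = 0.0113) and by 0.51 ± 0.088 with antibiotics in morphine mice (adjusted p = 0.000357).

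Klf15, a factor that controls amino acid and lipid use during fasting, was called in both comparisons of antibiotics with water and in neither of morphine with saline. Its median was 26.2 CPM (22.2 to 30.1) in water-saline and 34.1 (31.3 to 43.5) in antibiotic-saline libraries. Water-morphine libraries held 25.4, 29.0, 23.6, 28.6 and 26.4 CPM, and antibiotic-morphine libraries 34.9, 38.7, 46.7, 39.6 and 34.1. No water library reached any antibiotic library. Klf15 rose by 0.42 ± 0.089 with antibiotics in saline mice (adjusted p = 0.0204) and by 0.54 ± 0.095 with antibiotics in morphine mice (adjusted p = 0.000352). Its changes with morphine were 0.02 ± 0.093 in water and 0.14 ± 0.090 in antibiotic mice. The call in saline mice was lost without water-saline library 3 or without antibiotic-saline library 4, with an adjusted p of up to 0.0654.

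Zbtb16, which encodes the zinc finger repressor PLZF, rose by 1.61 ± 0.355 with antibiotics in morphine mice (adjusted p = 0.00379), from 9.14 ± 2.25 to 28.0 ± 6.13 CPM (SD, n = 5 each). In saline mice its antibiotic libraries spread from 8.01 to 36.3 CPM and the change of 1.09 ± 0.344 did not pass (adjusted p = 0.116). Bcl6, a repressor of inflammatory genes, rose by 0.50 ± 0.138 with antibiotics in morphine mice and lost its call when the libraries with the most counts outside genes (antibiotic-saline 6, antibiotic-morphine 4) were left out. The basic leucine zipper factors Cebpb and Cebpd passed in no comparison, and in the same pair their changes were 0.27 ± 0.181 and 0.57 ± 0.235.

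The largest change among the members was that of Plin4, a metabolic gene. Of the 6 genes of fuel, lipid and small-molecule metabolism, 5 rose with antibiotics in morphine mice, 4 with morphine in antibiotic mice and 2 with antibiotics in saline mice. The shares of all genes called higher in these pairs were 8.42%, 6.43% and 0.542%. Plin4, which encodes perilipin 4, a coat protein of lipid droplets, had a median of 3.05 CPM (1.17 to 4.46) in water-saline and of 10.5 (5.02 to 40.1) in antibiotic-saline libraries. The water-morphine libraries held 2.31, 4.26, 4.82, 4.15 and 5.13 CPM, and the antibiotic-morphine libraries 51.4, 47.6, 59.7, 66.7 and 55.8. Every antibiotic-morphine library was above every other library, and antibiotic-saline libraries 4 (26.5) and 6 (40.1) were well above the other 4 of their group.

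Plin4 rose 5.72-fold with antibiotics in saline mice (2.52 ± 0.432, adjusted p = 0.00792). With antibiotics in morphine mice it rose 13.3-fold (3.74 ± 0.431, adjusted p = 1.43e-05), and with morphine in antibiotic mice by 1.71 ± 0.354 (adjusted p = 0.00434). In water mice the change with morphine was 0.48 ± 0.510 (adjusted p = 0.624). The call with antibiotics in saline mice was lost when only those 2 groups entered the fit (2.52, adjusted p = 0.0717).

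Sult1a1, a sulfotransferase for phenols and catechols, had a median of 6.33 CPM (5.53 to 10.6) in water-saline and of 10.4 (8.31 to 17.3) in antibiotic-saline libraries. Water-morphine libraries held 6.73, 8.005, 6.45, 6.49 and 7.20 CPM, and antibiotic-morphine libraries 21.8, 19.6, 22.6, 21.1 and 16.7. The morphine groups lay apart, whereas the saline groups overlapped through water-saline library 4 (10.6). Sult1a1 rose by 1.54 ± 0.169 with antibiotics in morphine mice (adjusted p = 2.66e-06), by 0.81 ± 0.155 with morphine in antibiotic mice (adjusted p = 0.00189) and by 0.69 ± 0.161 with antibiotics in saline mice (adjusted p = 0.0346). That last call was lost in 7 of 12 fits without 1 library of its pair, with an adjusted p of up to 0.102.

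Pnpla2, the lipase that takes the first fatty acid off stored triglyceride, had a median of 20.1 CPM (18.4 to 24.5) in water-saline and of 25.9 (19.8 to 28.4) in antibiotic-saline libraries. Its water-morphine libraries held 21.6, 20.9, 20.3, 18.1 and 17.7 CPM, and its antibiotic-morphine libraries 33.3, 32.3, 39.9, 34.8 and 28.4. The lowest antibiotic-morphine library, library 5, met the highest antibiotic-saline library, and the morphine groups did not overlap. Pnpla2 rose by 0.77 ± 0.101 with antibiotics in morphine mice (adjusted p = 1.73e-05) and by 0.46 ± 0.096 with morphine in antibiotic mice (adjusted p = 0.00340).

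Pdk4, a kinase that shuts off pyruvate dehydrogenase and spares glucose, had a median of 12.4 CPM (8.56 to 13.3) in water-saline and of 13.4 (10.8 to 17.3) in antibiotic-saline libraries. Water-morphine libraries held 11.996, 11.5, 12.6, 15.7 and 10.6 CPM and antibiotic-morphine libraries 15.6, 19.7, 21.4, 17.9 and 15.7. The morphine groups overlapped through water-morphine library 5. Pdk4 rose by 0.53 ± 0.127 with antibiotics in morphine mice (adjusted p = 0.00509) and by 0.41 ± 0.122 with morphine in antibiotic mice (adjusted p = 0.0300). The second call was lost in 7 of 11 fits without 1 library of its pair, with an adjusted p of up to 0.1003.

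Xdh, xanthine dehydrogenase of purine breakdown, rose by 0.63 ± 0.155 with antibiotics in morphine mice (adjusted p = 0.00608). Angptl4, a secreted inhibitor of lipoprotein lipase, was the 1 member with a negative change there, at -0.67 ± 0.252 (adjusted p = 0.0682), from 4.23 ± 1.20 to 2.61 ± 0.869 CPM (SD, n = 5 each).

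The metallothioneins bind zinc and copper. Mt1 fell by 0.22 on the log2 scale with morphine in water mice (SE 0.063, adjusted p = 0.0368) and was higher by 0.20 ± 0.066 with antibiotics in morphine mice (adjusted p = 0.0359). Its level was 170 ± 12.3 CPM (SD, n = 6) in water-saline, 146 ± 14.3 (n = 5) in water-morphine, 164 ± 11.6 (n = 6) in antibiotic-saline and 168 ± 8.04 (n = 5) in antibiotic-morphine libraries. The first Mt1 call was lost in 7 of 11 fits without 1 library and the second in 5 of 10, with adjusted p of up to 0.0936 and 0.101. Mt2 had changes of -0.22 ± 0.092 and 0.03 ± 0.095 in those pairs and passed in neither.

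Small GTPases and proteins tied to them gave 3 calls with antibiotics in morphine mice, of 5 genes. All 3 were higher, where 8.42% of all genes were called higher. Rhob, an endosomal GTPase, had a median of 312 CPM (297 to 323) in water-saline and of 326 (313 to 344) in antibiotic-saline libraries. The water-morphine libraries held 276, 283, 248, 267 and 271 CPM, and the antibiotic-morphine libraries 317, 350, 362, 317 and 302. The water-morphine libraries lay below all others, and the other 3 groups overlapped. Rhob fell by 0.21 on the log2 scale with morphine in water mice (SE 0.048, adjusted p = 0.0113), and it rose by 0.29 ± 0.050 with antibiotics in morphine mice (adjusted p = 0.000247).

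Rasd1 encodes Dexras1, a Ras-like GTPase first known as a dexamethasone-induced transcript. Its median was 5.56 CPM (5.14 to 7.02) in water-saline and 11.5 (7.36 to 18.1) in antibiotic-saline libraries. Water-morphine libraries held 6.00, 8.15, 8.21, 8.37 and 6.04 CPM, and antibiotic-morphine libraries 17.0, 14.9, 25.4, 20.7 and 13.3. The antibiotic groups lay above the water group given the same injection, and within the antibiotic-saline group libraries 4 and 5 were high. Rasd1 rose by 1.11 ± 0.208 with antibiotics in saline mice (adjusted p = 0.0120) and by 1.30 ± 0.213 with antibiotics in morphine mice (adjusted p = 0.000247), and its change with morphine in antibiotic mice was 0.56 ± 0.197 (adjusted p = 0.0656).

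Net1, an exchange factor for RhoA, rose by 0.36 ± 0.101 with antibiotics in morphine mice (adjusted p = 0.0147), and its change in saline mice was 0.37 ± 0.095 (adjusted p = 0.0510). Arl4d, an ARF-like GTPase, and Nedd9, a docking protein at focal adhesions, passed in no comparison, with changes of 0.13 ± 0.255 and 0.30 ± 0.107 in morphine mice. Among the 3 surface and matrix genes, Gjb6, which encodes the astrocyte gap junction protein connexin 30, rose by 0.64 ± 0.204 with antibiotics in morphine mice (adjusted p = 0.0348) and lost the call in 8 of 10 fits without 1 library, with an adjusted p of up to 0.0784. Mertk, a receptor for the uptake of dying cells, had a change of 0.23 ± 0.080 (adjusted p = 0.0506). Ctgf, a matrix protein, varied widely within groups, from 2.57 to 62.1 CPM among the water-morphine libraries alone, and its change was 0.88 ± 0.639 (adjusted p = 0.373).

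Whether morphine changed the members differently with and without antibiotics was tested as the difference of the log2 changes, that in antibiotic mice minus that in water mice. Of the 32 members, 3 were called, all with a higher value in antibiotic mice, against 0.220% of all genes called in that direction and 0.247% in the other. They were Cdkn1a (1.26 ± 0.195, adjusted p = 0.00826), Arrdc2 (1.05 ± 0.205, adjusted p = 0.0206) and Map3k6 (0.96 ± 0.190, adjusted p = 0.0206), the genes of p21, an arrestin-domain protein and a stress kinase. Their changes with morphine in water mice were -0.35 ± 0.141, -0.20 ± 0.150 and -0.34 ± 0.141 and did not pass. The median difference over the members was 0.24 against -0.01 for all genes, and 29 of 32 were positive. At an unadjusted p under 0.05, 10 members were higher and 0 lower, where 5.47% of all genes were higher.

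For Plin4 the difference was 1.22 ± 0.626 (adjusted p = 0.443) and for Hif3a 0.79 ± 0.326 (adjusted p = 0.318), so a different change with morphine was not shown for these members. Pnpla2 (0.54 ± 0.139, adjusted p = 0.0884), Klf9 (0.45 ± 0.119, adjusted p = 0.0999) and Sult1a1 (0.86 ± 0.233, adjusted p = 0.109) came next. Without water-morphine library 2, Arrdc2 had an adjusted p of 0.0528 and 2 members were called, beside 28 of all genes (68 with all libraries).

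**Figure D4:**
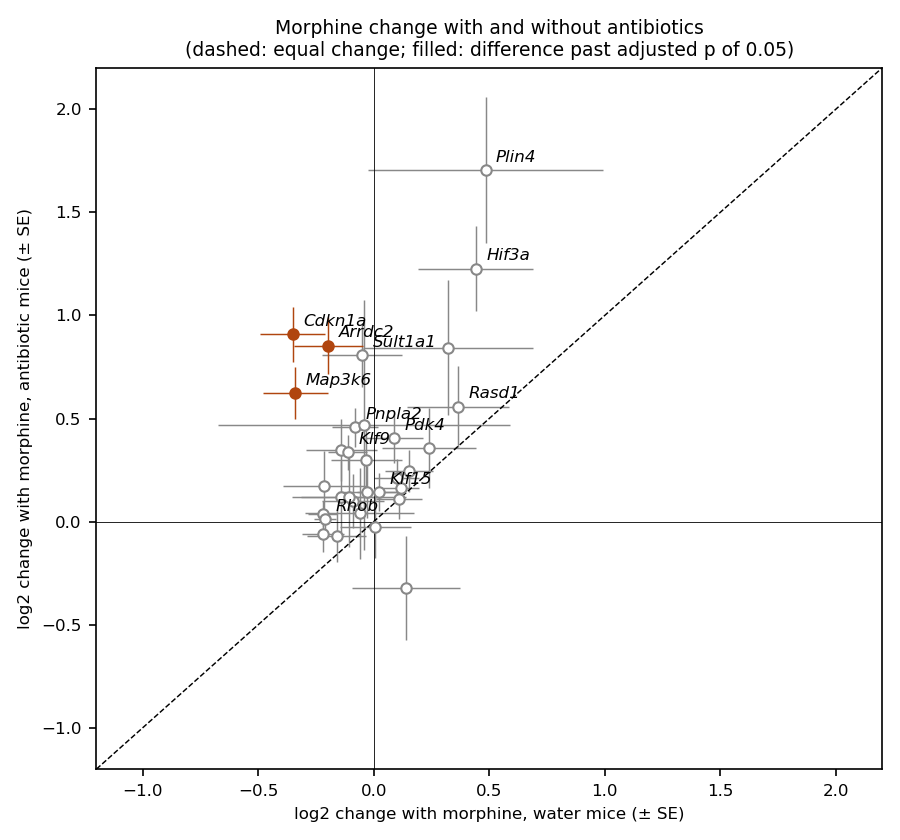
Log2 change with morphine in water mice (horizontal axis) and in antibiotic mice (vertical axis) for the 32 tested members, with standard errors, the dashed line marking equal change. Cdkn1a, Arrdc2 and Map3k6, filled, passed the test of the difference and lie left of 0 and above 0.6; Plin4 lies highest.

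The receptors themselves passed in no comparison. Nr3c1, the glucocorticoid receptor gene, had group means of 84.7 to 89.5 CPM and Nr3c2, the mineralocorticoid receptor gene, 49.6 to 55.8. In a list of 16 receptor, chaperone and coregulator genes, 2 rose and 3 fell with antibiotics in morphine mice, and the same counts held for morphine in antibiotic mice. Of all genes, 8.42% rose and 9.58% fell in the first of these pairs, and 6.43% and 6.62% in the second. With morphine in water mice 0 rose and 1 fell, where 3.91% of all genes rose and 2.67% fell. With antibiotics in saline mice 0 passed in edgeR, with 4 at an unadjusted p under 0.05. There 0.542% of all genes were called higher and 0.865% lower at the adjusted level, and 8.62% were higher at the unadjusted one. Fkbp5, a co-chaperone that the receptor induces and that lowers its affinity for hormone, rose by 1.11 ± 0.112 with antibiotics in morphine mice. Its libraries ranged from 59.4 to 68.2 CPM (median 65.6) in water-saline and from 69.3 to 105 (median 74.9) in antibiotic-saline mice, which did not overlap. Those with morphine held 55.9, 66.3, 55.2, 71.2 and 61.3 CPM in water mice and 140, 108, 163, 142 and 116 CPM in antibiotic mice. Its difference of morphine changes was 0.79 ± 0.151 (adjusted p = 0.0206). Nrip1, a coregulator of nuclear receptors, rose by 0.51 ± 0.116 with antibiotics in morphine mice, while Fkbp4, the co-chaperone that helps carry the receptor to the nucleus, fell by 0.28 (SE 0.062) and Bag1, a co-chaperone of heat shock protein 70, by 0.18 (SE 0.048). The other gene that fell there was Stip1, which links heat shock proteins 70 and 90, by 0.26 (SE 0.070).

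In a list of 8 further known targets, 5 rose and 0 fell with antibiotics in morphine mice, 3 rose and 0 fell with morphine in antibiotic mice, and 0 passed in edgeR with antibiotics in saline mice, where 4 were higher at an unadjusted p under 0.05. Of all genes, 8.42%, 6.43% and 0.542% were called higher in these pairs, and 8.62% were higher at that unadjusted level in the last. Mfsd2a, the lipid transporter of brain endothelium, rose by 0.80 ± 0.094 with antibiotics in morphine mice (adjusted p = 4.65e-06) and had a difference of morphine changes of 0.68 ± 0.128 (adjusted p = 0.0173). In the former pair Fam107a, an actin-associated stress gene, rose by 0.37 ± 0.070, the clock gene Per1 by 0.51 ± 0.101 and Gpd1, glycerol-3-phosphate dehydrogenase, by 0.43 ± 0.102. The fifth was Sesn1, a stress-induced sestrin, at 0.20 ± 0.057. With morphine in water mice 1 of the 8 rose and 1 fell: Tiparp, a mono-ADP-ribosyltransferase, rose by 0.58 (adjusted p = 0.0343), and Gpd1 fell by 0.38 (SE 0.098, adjusted p = 0.0258). The shares of all genes there were 3.91% higher and 2.67% lower.

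Markers of other cells were read beside the members. In bulk tissue, fewer cells of a type and less RNA per cell cannot be told apart. None of the marker lists held a gene called higher with antibiotics in morphine mice. Of all tested genes, 8.42% were called higher and 9.58% lower in that pair. Microglial markers were lower in 10 of 10 genes there, and their sum was 587 to 626 CPM in water-saline, 508 to 575 in water-morphine, 458 to 565 in antibiotic-saline and 379 to 453 in antibiotic-morphine libraries. Endothelial markers were lower in 5 of 10, with sums of 298 to 333 and 264 to 316 CPM in the morphine groups. Oligodendrocyte markers were lower in 3 of 10, with sums of 5370 to 6306 and 5465 to 6253 CPM.

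Astrocyte markers were lower in 2 of 10 in that pair, and their sums overlapped, at 4305 to 4683 CPM with water and 4119 to 4568 with antibiotics. Pericyte and smooth muscle markers were lower in 1 of 10, about the share of all genes, with sums of 190 to 241 and 172 to 211 CPM. Of 12 markers of striatal projection neurons and 10 of cortical and septal neurons, 0 passed in edgeR, with 1 and 0 at an unadjusted p under 0.05, and the cortical sum ran from 176 to 1322 CPM within the water-morphine group alone. Of 9 blood genes, the haemoglobin genes Hba-a1, Hba-a2 and Hbb-b1 were at 0 in every library, and the sum of all 9 was 3.09 to 15.2 CPM over the 22.

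Marker genes also moved in the other pairs. With antibiotics in saline mice, 7 of 10 oligodendrocyte, 6 of 10 microglial and 2 of 10 endothelial markers were lower, and the oligodendrocyte sums did not overlap, at 6311 to 7300 CPM with water and 5331 to 6250 with antibiotics. Of all genes, 0.865% were called lower there. With morphine in antibiotic mice, 9 of 10 microglial, 3 of 10 endothelial and 1 of 10 pericyte and smooth muscle markers were lower, and 3 of 10 oligodendrocyte markers were higher. All genes gave 6.62% lower and 6.43% higher. Those 3 were the only oligodendrocyte markers with a positive change, and the median over the 10 was -0.024. With morphine in water mice, 3 of 10 oligodendrocyte, 3 of 10 microglial and 2 of 10 endothelial markers were lower, as was 1 gene each of the pericyte, blood and cortical lists. The share of all genes called lower was 2.67%. Astrocyte markers called numbered 0 of 10 in each of these 3 pairs in edgeR, with 2, 2 and 2 at an unadjusted p under 0.05. In the last of these pairs, morphine in water mice, 22.7% of all genes passed that unadjusted level in either direction. The part of these shifts in the members' changes was not tested.

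The transcript-length slope separated water-saline from water-morphine libraries. Among antibiotic mice, saline library 6 (0.0479) lay within the morphine range, and the other saline libraries (-0.0532 to -0.00819) lay below it. Between the morphine groups the slope overlapped. With the slope as a term in the fit 21 members were still called with antibiotics in morphine mice, beside 2677 of all genes (2621 without the term). In the same fit 1 of the 9 members called with morphine in antibiotic mice passed, Cdkn1a (0.90, adjusted p = 0.0395), while Arrdc2 (0.74, adjusted p = 0.0664) and Sult1a1 (0.84, adjusted p = 0.0687) did not, and Plin4 dropped to 0.87 (adjusted p = 0.330). Over all genes, calls in that pair went from 1900 to 141. With antibiotics in saline mice 2 of the 5 passed, Klf15 (0.46, adjusted p = 0.0491) and Rasd1 (1.21, adjusted p = 0.0442), and Plin4 was at 1.79 (adjusted p = 0.0646). Calls over all genes there went from 205 to 45. With morphine in water mice 0 members and 0 of all genes passed in that edgeR fit. For the difference of morphine changes it called 4 members, with Klf9 (0.54, adjusted p = 0.0286) beside Cdkn1a, Arrdc2 and Map3k6. When those 2 libraries with the most counts outside genes were left out, the calls with antibiotics numbered 4 in saline mice and 18 in morphine mice. Over all genes those calls numbered 74 and 2114.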

How the data were processed

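The members and the gene lists were chosen with earlier results of these data known. The authors deposited whole-number counts per gene for 22 libraries. The submitters' processing notes name STAR 2.4.0, FastQC and edgeR; the sources used here do not give the build, annotation, counter or strand setting. Summary entries that name no gene took 20.6% to 26.4% of a library and were left out, and no table column lacked a sample. A normalised table was not used.

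All 14564 genes kept by filterByExpr (minimum count 10) were fitted in a model of 4 groups with TMM scaling and edgeR 4.0.16 (R 4.3.3), with a robust quasi-likelihood F-test, two-sided. Benjamini-Hochberg adjustment ran over all tested genes. The standard error is the log2 change divided by the square root of F. CPM use the TMM-scaled gene counts, and log2 CPM a prior count of 2. Lengths are those of the longest protein-coding transcript in GENCODE, matched by symbol for 95.4% of tested genes. Values in every library are given for members called in at least 2 of the 4 pairs, at most the 12 with the smallest p; outside the members, at most 4 genes of each list with the smallest p are named, and Nr3c1, Nr3c2, Stip1, Sesn1 and Tiparp were added after their values were seen. Within groups, library pairs differed by 3.09 to 22.0 times the chi-square expected of sampling, so none was counted as a duplicate. The script was tested on simulated counts. Alternatives used limma 3.58.1 and DESeq2 1.42.0, other scaling, filters and terms, and each library left out. The depth limits rare members such as Lcn2.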

Additional observations from a re-analysis of the deposited data

Results flagged for a closer look

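Single libraries stood apart from the rest of their group, by Dixon's gap criterion, in 13 of 132 sets of 1 gene in 1 group, where chance gives about 1 in 20. Antibiotic-morphine library 2 was the highest of its group for Ddit4 (81.7 CPM, the others 51.7 to 56.3), Nfkbia (31.1, the others 19.1 to 21.99) and Arl4d (48.4, the others 29.7 to 32.8), 3 members that passed in no comparison. Antibiotic-saline library 5 was highest for Nfkbia (31.0 CPM) and Cebpd (5.20), library 6 of that group for Zbtb16 (36.3, the others 8.01 to 17.5), library 4 for Klf15 (43.5, the others 31.3 to 35.2) and library 1 for Cdkn1a (29.6, the others 23.3 to 24.7). Mt1 was highest in antibiotic-morphine library 3 (182 CPM), Ctgf in water-morphine library 4 (62.1, the others 2.57 to 15.9), Rasd1 in water-saline library 5 (7.02) and Lcn2 in water-saline library 4 (0.754, the others 0 to 0.0969). Nfkbia was lowest in water-morphine library 6 (11.4 CPM, the others 19.2 to 21.4).

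The change with morphine differed between antibiotic and water mice, by the test of the difference itself, for Cdkn1a (1.26), Arrdc2 (1.05) and Map3k6 (0.96), each higher in antibiotic mice.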

How the results depend on the processing

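No called value changed sign under any alternative. The count of 21 members with antibiotics in morphine mice stayed between 15 and 23 over all settings and between 18 and 22 when 1 library was left out. Calls over all genes in that pair ran from 1257 to 2774 over all settings and from 1877 to 2748 when 1 library was left out. Without water-morphine library 4, and likewise without antibiotic-morphine library 2, the 21 calls were 20 higher and 1 lower. Of the calls, 18 of 21 were kept in every such fit, as were 8 of 9 with morphine in antibiotic mice (8 to 11 members), 3 of 5 with antibiotics in saline mice (3 to 8), 1 of 2 with morphine in water mice (1 to 3) and 2 of 3 for the difference of morphine changes (2 to 4). Over all genes, calls in these fits ran from 1084 to 2048 with morphine in antibiotic mice. They ran from 48 to 409 with antibiotics in saline mice, from 509 to 880 with morphine in water mice and from 28 to 100 for the difference. The 5 calls with antibiotics in saline mice were 3 without water-saline library 3 or antibiotic-saline library 4 and 8 without antibiotic-saline library 3. Calls over all genes were 59, 48 and 229 in these fits, against 205 with all libraries.

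An adjusted p under 0.01 left 0 members with morphine in water mice, 2 with antibiotics in saline mice and 1 for the difference. Calls over all genes went from 959 to 197, from 205 to 26 and from 68 to 6. DESeq2 called 8 with antibiotics in saline mice and 6 for the difference, and 420 and 181 of all genes. A fit of only the groups compared called 1 with morphine in water mice and 3 with antibiotics in saline mice, beside 991 and 67 of all genes. The length slope as a term left 0 with morphine in water mice, 1 with morphine in antibiotic mice and 2 with antibiotics in saline mice. Over all genes it left 0, 141 and 45, from 959, 1900 and 205. The share of counts outside genes as a term left 1 with morphine in water mice, and 697 of all genes. The cause of these moves was not tested.

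Library numbers recur across groups. The correlation of same-numbered libraries averaged 0.00236 over 25 pairs (-0.478 to 0.353), and that of differently numbered ones -0.00018 over 156 pairs (-0.53 to 0.667). Of the 22 libraries, 4 matched their own number best. Whether some libraries of the same number share a source was not tested. With the number as a replicate block, 1 member was called with morphine in water mice, 10 with morphine in antibiotic mice, 3 with antibiotics in saline mice, 19 with antibiotics in morphine mice and 1 for the difference. Over all genes the block gave 281, 1573, 105, 2003 and 10 calls, against 959, 1900, 205, 2621 and 68 without it.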
